A study of Mus musculus with 21 samples.

Results

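Imprinted genes were followed in hearts of mouse embryos labelled null for Chd4. CHD4 is the helicase subunit of the NuRD chromatin remodelling and deacetylase complex. A list of 38 genes for which expression from a single parental allele is known in mice was matched by symbol, and all 38 were found among the 24509 genes of the deposited tables. RNA was measured in 5 Chd4 Δflox/Δflox (null) and 5 Chd4 flox/flox (flox) libraries of cardiac tissue at embryonic day 9.5 (E9.5), and in 3 null and 3 flox libraries at E10.5, all of strain CD1. CHD4 binding was mapped in wild-type CD1 hearts at E10.0, with 3 peak lists from 2 biological replicates. The flox controls carry both floxed alleles, the labels used here do not name the recombinase or the cells in which it acts, and they do not say how many hearts went into a library. Values are reads per kilobase of gene and per 1000000 reads of the library (RPKM). They hold no information on the parental allele, so every value is the sum over both alleles, and a changed level says nothing of whether an imprint was kept.

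Imprinted genes lie in clusters that are governed by imprinting control regions, DNA segments methylated on the allele of a single parent. A cluster typically holds protein-coding genes expressed from a given parental allele and a long noncoding RNA expressed from the other. Many of the proteins act on growth of the embryo and placenta: paternally expressed genes such as Igf2 tend to promote growth, and maternally expressed genes such as Cdkn1c, Igf2r, Grb10 and Phlda2 tend to restrain it. Excess of Igf2 enlarges embryos, and several of these genes are highly expressed in mesodermal organs, the heart included.

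Chd4 transcript was 40.7 to 48.8 RPKM in null libraries and 91.2 to 94.6 RPKM in flox libraries at E9.5 (log2 difference -1.01 ± 0.05 SE, limma adjusted p = 1.69e-06). At E10.5 it was 48.2 to 57.4 RPKM in null and 67.2 to 91.1 RPKM in flox libraries, groups that did not overlap although the difference of -0.55 ± 0.16 did not pass the test (limma adjusted p = 0.116). Libraries held 17.05 to 20.1 M reads (1 M is 1000000) in null and 19.6 to 23.5 M in flox hearts at E9.5, and 18.0 to 18.9 M in null and 17.3 to 18.0 M in flox hearts at E10.5. All 12 cardiomyocyte markers checked were present in every library, with a summed level of 13650 to 17490 RPKM in null and 17390 to 20750 RPKM in flox hearts at E9.5. At E10.5 the sums were 11930 to 16620 RPKM in null and 8063 to 14850 RPKM in flox hearts. Heart muscle RNA was thus present in every library, which does not show that other tissue was absent. Of the 12, Myh6, Myl4 and Actc1 fell at E9.5 (by 0.76, 0.51 and 0.35 on the log2 scale), and 10 had a lower level in null hearts at that stage. At E10.5 10 of the 12 had a higher level in null hearts, and none was called by limma or limma-voom or at an unadjusted p under 0.05. Erythroid markers moved with the genotype: their 13 genes summed to 27890 to 75250 RPKM in null and 11060 to 28130 RPKM in flox hearts at E9.5, 10 of them rose and none was at 0. At E10.5 the erythroid sums were 46650 to 142200 RPKM in null and 24330 to 68250 RPKM in flox hearts, overlapping ranges, and none of the 13 was called by limma or limma-voom, while 2 were higher at an unadjusted p under 0.05. In whole hearts fewer cells of a type and less RNA per cell cannot be told apart.

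At E9.5, 34 of the 38 imprinted genes reached the mean of 0.5 RPKM over the stage that was needed for testing. In null hearts 5 of them rose, namely Slc22a18, Meg3, Rtl1, Rian and Mirg, and 3 fell, namely Cdkn1c, Ube3a and Blcap. The other 26 did not pass. Slc22a18 and Rtl1 reached the 0.5 RPKM only through the null libraries, with flox means of 0.271 and 0.336 RPKM, so their being tested was not independent of the difference. With a limit of 1 RPKM neither was tested, which leaves 3 rises and 3 falls. The test was limma on log2(RPKM + 0.5), two-sided, with p-values adjusted over all genes tested and called under 0.05. Of all 13643 genes tested at this stage 17.2% were called, 6.87% as higher and 10.3% as lower in null hearts, so 8 calls among 34 genes lie near the share of the whole table. Null and flox libraries were fully separated for 4 genes that were higher, Rtl1 among them, and 3 that were lower in null hearts, against 5.5% and 8.57% of all genes in those directions. That split of the calls depends on the scaling: 937 of 2342 called genes rose without further scaling and 1151 of 2180 after scaling to the median. The median log2 difference of the 34 genes was 0.04, against -0.04 for all genes tested.

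At E10.5, 36 genes could be tested. Meg3, Rian and Mirg rose and none fell, while 33 did not pass. Slc22a18, Ascl2, Rtl1 and Slc22a3 reached 0.5 RPKM only through the null libraries at this stage. Of all 14100 genes tested at E10.5 2.07% were called, 1.77% as higher and 0.305% as lower. Without adjustment, 7 of the 36 genes were higher and 1 was lower at p under 0.05, and limma-voom on whole reads called 4 rises and no fall. Over all genes tested those counts were 1638 and 1588 unadjusted, and 257 and 58 by limma-voom. Slc22a18, Ascl2 and Rtl1 are among the 7 higher genes, beside Dlk1, Meg3, Rian and Mirg. Rtl1 is the rise that limma-voom added. For Slc22a18, Ascl2 and Rtl1 being tested was not independent of the difference. Null and flox libraries were fully separated for 6 tested genes that were higher and 1 that was lower in null hearts, where 13.9% and 17.4% of all genes had no overlap in those directions. Slc22a18, Ascl2 and Rtl1 are among these 6 as well. The median log2 difference was 0.03, against -0.04 for all genes tested.

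Of the 8 calls at E9.5, 7 were of genes classed here as maternally expressed, a class not read from these libraries. Of these, Meg3, Rian and Mirg lie on the same strand of a single cluster, and imprinting of Ube3a is known in neurons. At that stage 16 genes of that class were tested. Of them 4 rose, Slc22a18 among these, and 3 fell, where 6.87% of all genes tested rose and 10.3% fell. Of 18 paternally expressed genes tested, Rtl1 rose and none fell, while an unadjusted p under 0.05 was reached by 1 higher and 1 lower gene and limma-voom gave 1 rise and no fall. All 3 rises at E10.5 were of maternally expressed noncoding RNAs from a single cluster on chromosome 12. Of 18 paternally expressed genes tested at E10.5 none was called by limma. Dlk1 and Rtl1 reached an unadjusted p under 0.05, both higher in null, and limma-voom called 1 rise, that of Rtl1. The difference between the parental classes was not tested.

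**Figure D1:**
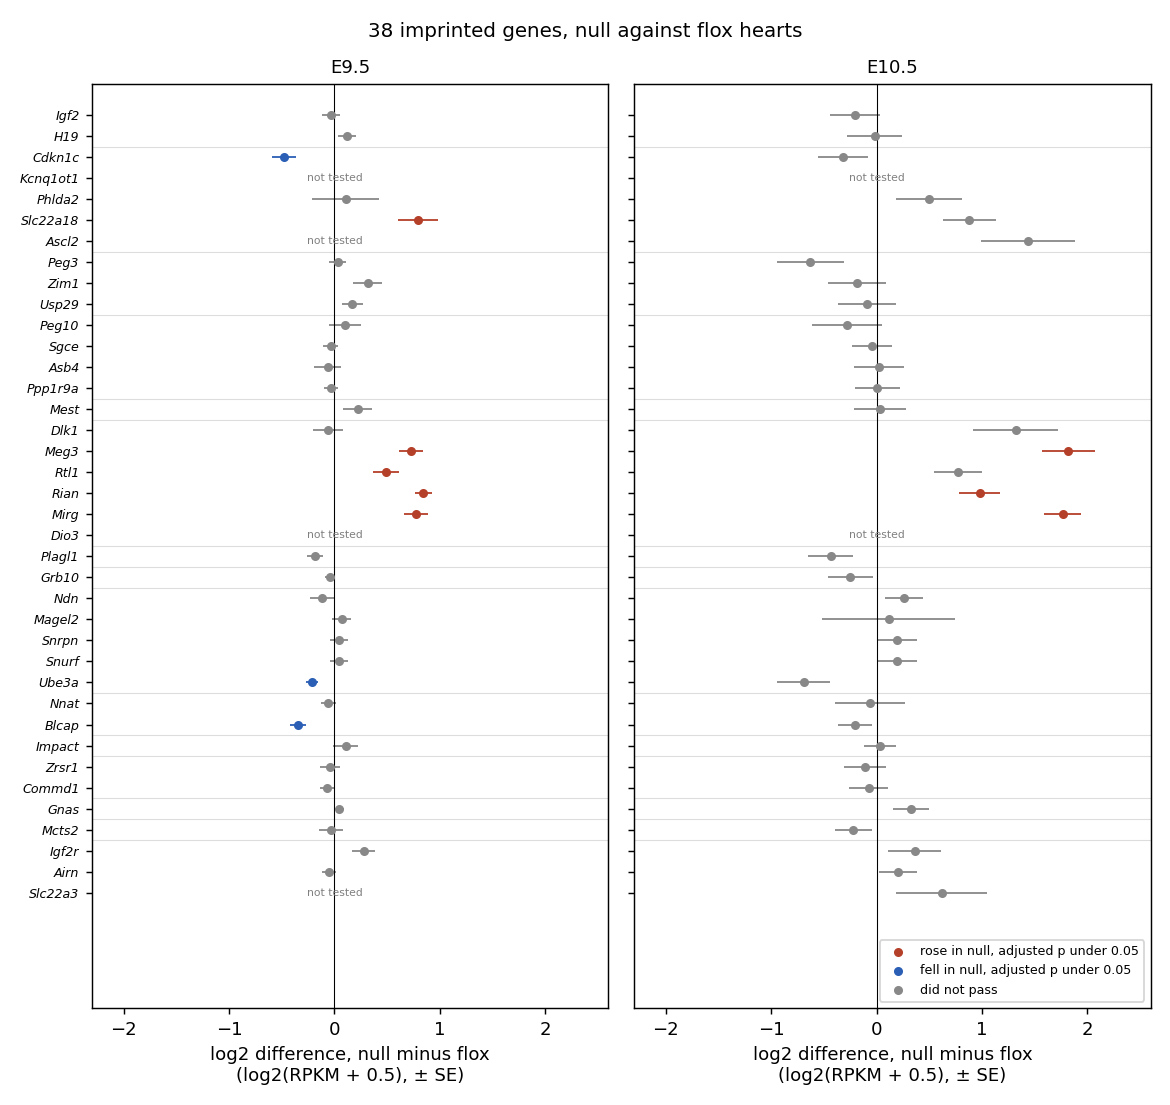
Log2 difference of null minus flox hearts for the 38 imprinted genes, on the log2(RPKM + 0.5) scale with its standard error, grouped by locus from top to bottom, at E9.5 on the left and E10.5 on the right. Red points rose and blue points fell at a limma adjusted p under 0.05, and the maternal noncoding RNAs Meg3, Rian and Mirg are the 3 genes in red in both panels.

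The Dlk1-Dio3 domain on chromosome 12 held 4 of the 5 rises at E9.5 and all 3 at E10.5. From the paternal allele this domain expresses Dlk1, a transmembrane ligand of the Delta-Notch family, Rtl1, a retrotransposon-derived gene, and Dio3, a deiodinase that inactivates thyroid hormone. From the maternal allele it expresses Meg3, Rian and Mirg, noncoding RNAs that lie head to tail on the same strand and host small nucleolar RNAs and a large group of microRNAs.

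Meg3 at E9.5 had 25.7, 26.6, 26.6, 27.2 and 24.9 RPKM in the 5 null libraries, against 15.6, 14.5, 15.97, 21.0 and 12.1 RPKM in the 5 flox libraries. The lowest null value exceeded the highest flox value, and the log2 difference was 0.73 ± 0.11 SE (limma adjusted p = 0.0023). At E10.5 Meg3 had 37.6, 36.0 and 28.0 RPKM in the 3 null libraries, against 6.44, 13.2 and 8.93 RPKM in the 3 flox libraries. The groups again did not overlap, and the log2 difference was 1.82 ± 0.25 (limma adjusted p = 0.014). The call was lost without flox 3 (adjusted p = 0.0706) and without null 2 (adjusted p = 0.0542), with differences of 1.80 and 1.77.

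Rian, which hosts the C/D box small nucleolar RNAs of the domain, at E9.5 had 47.6, 45.8, 51.0, 49.5 and 51.8 RPKM in the 5 null libraries, against 27.9, 25.0, 27.7, 32.2 and 23.5 RPKM in the 5 flox libraries. The lowest null library exceeded the highest flox library, the log2 difference was 0.84 ± 0.08, and its limma adjusted p of 1.11e-04 was the smallest of the 38 genes. At E10.5 Rian had 65.4, 77.7 and 47.3 RPKM in the 3 null libraries, against 31.3, 34.6 and 28.4 RPKM in the 3 flox libraries. The libraries did not overlap, with a log2 difference of 0.98 ± 0.20 and a limma adjusted p of 0.0484. That call was lost when any library other than null 3 was left out (adjusted p up to 0.193), while the difference stayed between 0.82 and 1.17.

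Mirg, the host of the distal microRNA cluster, at E9.5 had 12.2, 11.6, 11.7, 12.2 and 11.1 RPKM in the 5 null libraries, against 6.85, 5.57, 7.49, 8.66 and 5.29 RPKM in the 5 flox libraries. At E10.5 it had 14.2, 18.5 and 21.1 RPKM in the 3 null libraries, against 4.74, 4.60 and 5.27 RPKM in the 3 flox libraries. No null library overlapped a flox library at either stage, and the null libraries were far tighter at E9.5 than at E10.5. The log2 difference was 0.77 ± 0.12 at E9.5 (limma adjusted p = 0.00172) and 1.77 ± 0.18 at E10.5 (limma adjusted p = 0.00369). The call held with any single library left out at either stage.

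Rtl1, needed in the mouse for the fetal vessels of the placenta, was close to the limit of testing. At E9.5 it had 0.582, 0.605, 0.591, 0.869 and 0.72 RPKM in the 5 null libraries, against 0.285, 0.309, 0.292, 0.508 and 0.285 RPKM in the 5 flox libraries, which rest on 54 to 85 reads in null and 30 to 54 reads in flox libraries. The groups did not overlap and the log2 difference was 0.49 ± 0.12 (limma adjusted p = 0.0207), a call lost without flox 5 (adjusted p = 0.0503), after quantile normalization (adjusted p = 0.0586) and with the epicardial level in the fit (adjusted p = 0.0575). Without any 1 of the 5 null libraries Rtl1 averaged under 0.5 RPKM and was not tested. At E10.5 it had 0.827, 0.991 and 0.808 RPKM in the 3 null libraries, against 0.234, 0.403 and 0.286 RPKM in the 3 flox libraries. These groups did not overlap either, but the difference of 0.77 ± 0.23 did not pass (limma adjusted p = 0.118). The log2(RPKM + 0.5) scale understates changes at this level: limma-voom on whole reads gave 1.02 at E9.5 and 1.52 at E10.5, the second with an adjusted p of 0.0439. The annotated span of Rtl1 overlaps that of Meg3 by 6830 bp and that of Rian by 474 bp. The counting strand is not stated, so reads of Rtl1 and of RNA from the opposite strand cannot be told apart.

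Dlk1 did not follow the noncoding RNAs at E9.5. It had 21.4, 20.9, 18.4, 20.7 and 15.5 RPKM in the 5 null libraries, against 18.1, 20.03, 22.3, 26.5 and 15.2 RPKM in the 5 flox libraries, overlapping ranges with a log2 difference of -0.06 ± 0.14 (limma adjusted p = 0.797). At E10.5 Dlk1 had 24.8, 84.2 and 63.5 RPKM in the 3 null libraries, against 17.8, 25.6 and 17.9 RPKM in the 3 flox libraries. Null 2 and null 3 stood far above the other 4 libraries, null 1 lay within the flox range, and the difference of 1.32 ± 0.40 did not pass (limma adjusted p = 0.123). Markers of foregut and liver were high in the same null libraries: the 10 genes of that list, such as Afp and Alb, summed to 24.9, 1425 and 1012 RPKM in the 3 null libraries, against 5.96, 189 and 7.31 RPKM in the 3 flox libraries. Afp alone was 12.03, 865 and 728 RPKM in null and 1.42, 148 and 0.97 RPKM in flox libraries. Of the 10 genes, 8 were tested at E10.5 and none was called, while 4 reached an unadjusted p under 0.05, all of them higher in null, and limma-voom called none. At E10.5 Afp and Alb were above 0 in every library, Serpina1a was at 0 in null 1, and Serpina1a, Ahsg, Foxa1 and Foxa2 were each at 0 in 1 or 2 flox libraries. Dlk1 is known to be abundant in fetal liver, and the part of such cells in its level was not tested. Without the libraries with the highest sums (null 2, null 3 and flox 2), which leaves 1 null library, the difference of Dlk1 was 0.46, against 1.32 with all libraries.

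For the noncoding RNAs the same omission left differences of 2.23 for Meg3, 1.42 for Mirg and 1.12 for Rian. Null 1 had the highest Meg3 level and the lowest Mirg level of the null libraries. Its foregut and liver sum of 24.9 RPKM was still above the 5.96 and 7.31 RPKM of flox 1 and flox 3. The part of such cells in these differences was not tested. The omission was chosen after the data were seen, and the lone null library is assumed to vary like the flox libraries.

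**Figure D2:**
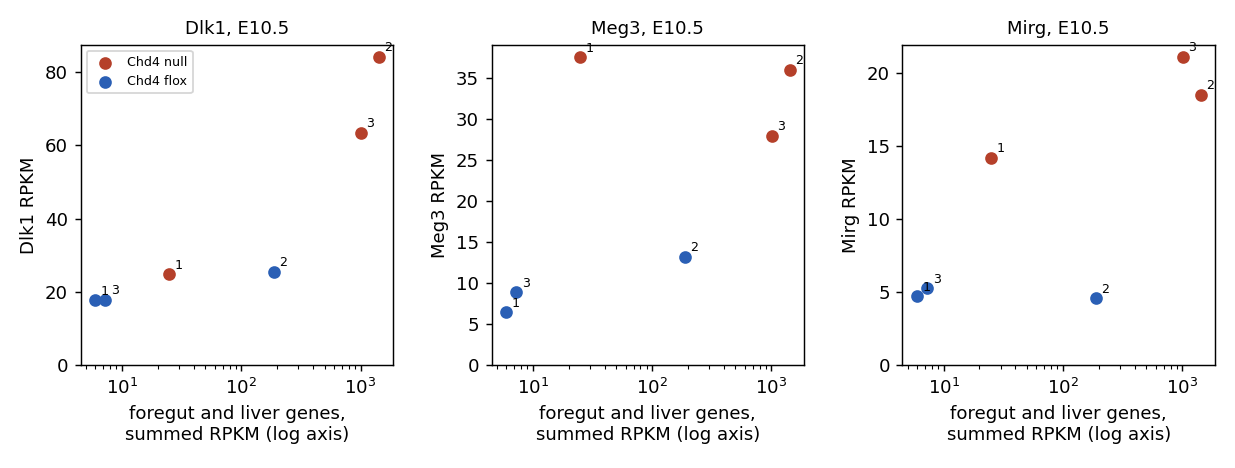
RPKM of Dlk1, Meg3 and Mirg at E10.5 against the summed RPKM of 10 foregut and liver genes on a log axis, with 1 numbered point per library. Dlk1 is highest in null 2 and null 3, the libraries with sums of 1425 and 1012 RPKM, while Meg3 and Mirg are above all flox libraries in null 1 too.

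Dio3 was too low for testing at both stages. Its highest value at E9.5 was 0.681 RPKM in flox 3, and at E10.5 it had 0.297, 0.709 and 0.529 RPKM in the 3 null libraries, against 0.238, 0.268 and 0.0927 RPKM in the 3 flox libraries. These rest on 10 to 25 reads in null and 3 to 9 reads in flox libraries at E10.5.

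**Figure D3:**
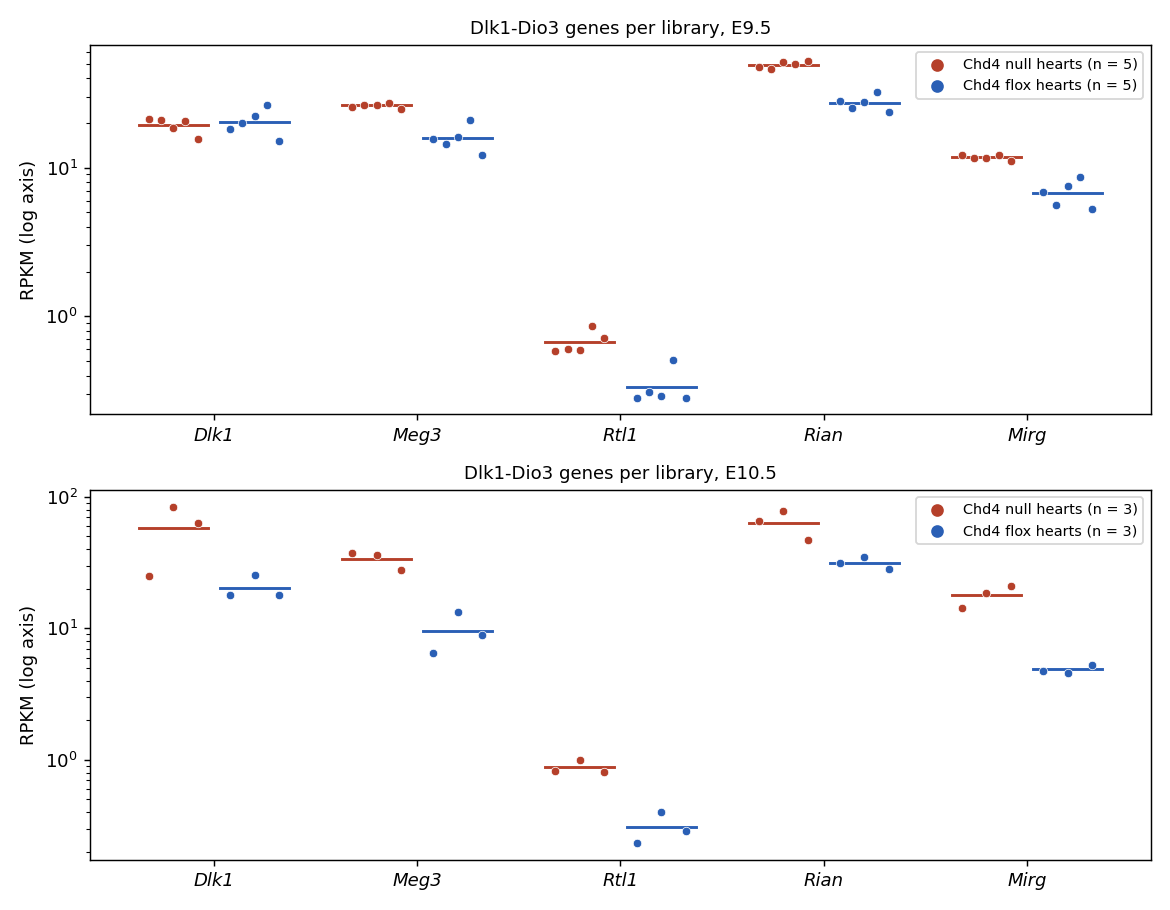
RPKM per library on a log axis for 5 genes of the Dlk1-Dio3 domain at E9.5 (top) and E10.5 (bottom), with null libraries left of flox libraries and horizontal bars at the group means. Meg3, Rian, Mirg and Rtl1 separate the genotypes at both stages, while Dlk1 overlaps at both.

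Between Dlk1 and Dio3 the table also lists 71 other rows, of which 61 are microRNA and 7 small nucleolar RNA genes. Polyadenylated libraries do not capture mature microRNAs, so reads on these short rows come from longer transcripts that cross them and are not independent of Meg3, Rian and Mirg. At E9.5, 16 rows could be tested and 4 rose, namely Mir1906-1, the noncoding 6430411K18Rik and the small nucleolar RNAs AF357359 and DQ267102. At E10.5, 20 rows could be tested and Mir410 alone rose, with 6 to 16 reads in null and 1 to 2 reads in flox libraries (log2 difference 2.27 ± 0.34, limma adjusted p = 0.0192). No row fell at either stage, and 14 of 16 rows at E9.5 and 17 of 20 at E10.5 had a positive difference. Over all genes tested the median log2 difference was -0.04 at each stage. These signs are not independent of the limit for testing. Mir377 at E10.5, for example, had 0 reads in every flox library and up to 3 in null libraries, so it was tested only through the null libraries. Reads summed over the 61 microRNA rows were 184, 158, 207, 196 and 225 in null and 125, 148, 118, 119 and 88 in flox libraries at E9.5, so every null library was above every flox library. At E10.5 these sums were 155, 160 and 95 in null and 30, 58 and 29 in flox libraries. Most of these reads lay on Mir1906-1 alone, with 1240 of 1568 at E9.5 and 391 of 527 at E10.5. The other 60 rows held 38, 34, 30, 34 and 53 reads in null and 26, 36, 27, 34 and 16 in flox libraries at E9.5, where the groups overlapped. At E10.5 they held 21, 47 and 41 reads in null and 7, 14 and 6 in flox libraries, without overlap.

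The mature forms of the 2 microRNA genes whose rows rose are shown, from RefSeq on GRCm38.p6, with the seed (bases 2 to 8) in capitals. None of the 3 shares its seed with another. They were not measured as mature RNAs. Mir1906-1 has a near-identical copy in the genome, so its reads are uncertain.
miR-1906: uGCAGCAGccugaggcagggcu
miR-410-5p: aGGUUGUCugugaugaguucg
miR-410-3p: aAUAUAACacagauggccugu

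CHD4 peaks were then located in this domain. In the span around it, 6 peaks were shared by all 3 peak lists. They lay 13.2 kb upstream of the first annotated Meg3 start, 1.9 kb inside Meg3, and 211.6, 212.8, 417.9 and 512.4 kb downstream of that start. The peaks at 211.6 and 212.8 kb lie past the annotated end of Mirg. None lay within 5 kb of the starts of Dlk1, Rian, Mirg or Dio3 or of either end of Rtl1. The promoter window at the first Meg3 start is shown because Meg3 rose at both stages and no shared peak covers the window. It was chosen after its values were seen. It runs from 250 bases before to 50 after the start, at chr12:109540746-109541045 on the plus strand of GRCm38.p6 (RefSeq), and holds 13 CpG dinucleotides. Capitals mark the hexamer TGCCGC, the core that the imprint-maintenance factor ZFP57 binds when methylated, here on the opposite strand.
Meg3 promoter: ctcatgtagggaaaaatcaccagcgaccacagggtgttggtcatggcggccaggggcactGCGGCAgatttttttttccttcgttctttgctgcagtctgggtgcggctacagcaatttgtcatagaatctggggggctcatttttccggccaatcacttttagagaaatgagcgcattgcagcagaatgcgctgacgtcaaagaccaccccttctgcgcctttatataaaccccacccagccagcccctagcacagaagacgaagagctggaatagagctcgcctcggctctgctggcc

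The hexamer, searched on both strands, was found in a promoter window of 11 of the 32 imprinted genes with a window, and in 13.1% of all 27025 genes with one. Snrpn and Snurf share a window, and of windows with distinct coordinates 11 of 47 held it (23.4%), against 11.6% of 32817 over all genes. Windows that overlap in part were counted apart on both sides. Those of Mest that start at chr6:30737800 and chr6:30737803 nearly coincide, and both hold it. A match describes letters only.

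Igf2 and H19 on chromosome 7 were, with Mest, the most abundant of the 38 genes. Igf2 encodes the paternally expressed insulin-like growth factor 2, and H19 is the maternally expressed noncoding RNA that shares its enhancers. At E9.5 Igf2 had 1432, 1674, 1605, 1431 and 1457 RPKM in the 5 null libraries, against 1360.2, 1739.5, 1453, 1584 and 1630.4 RPKM in the 5 flox libraries. At E10.5 Igf2 had 1444, 1522 and 1083 RPKM in the 3 null libraries, against 1624, 1353 and 1659.6 RPKM in the 3 flox libraries. The groups overlapped at both stages, with log2 differences of -0.03 ± 0.08 and -0.21 ± 0.23 (limma adjusted p = 0.839 and 0.624). H19 had 3469, 4389.7, 4108, 4038 and 3785 RPKM in the 5 null libraries, against 3402, 3924, 3518, 3739 and 3594 RPKM in the 5 flox libraries at E9.5. At E10.5 H19 had 4391, 3799.5 and 4184 RPKM in the 3 null libraries, against 4319.6, 3941 and 4248 RPKM in the 3 flox libraries. Neither stage gave a call, with log2 differences of 0.12 ± 0.09 and -0.02 ± 0.26 (limma adjusted p = 0.369 and 0.976).

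Igf2r on chromosome 17, the maternally expressed receptor that clears IGF2, is paired with the paternal noncoding RNA Airn, whose transcription silences it in cis. At E9.5 Igf2r had 281, 338, 366, 408 and 332 RPKM in the 5 null libraries, against 249.6, 323, 239, 313 and 301 RPKM in the 5 flox libraries. The ranges overlapped, and the log2 difference of 0.28 ± 0.11 did not pass (limma adjusted p = 0.119). It did pass without null 1, with 0.35 (adjusted p = 0.0441). At E10.5 Igf2r had 273, 201 and 153 RPKM in the 3 null libraries, against 199, 154 and 129 RPKM in the 3 flox libraries, a difference of 0.36 ± 0.25 (limma adjusted p = 0.404). Airn had 13.2 to 14.8 RPKM in null and 13.9 to 16.8 RPKM in flox hearts at E9.5, and 10.4 to 13.8 RPKM in null and 8.91 to 12.6 RPKM in flox hearts at E10.5, and did not pass. Airn and Igf2r overlap by 28396 bp on opposite strands. Slc22a3, an organic cation transporter silenced in cis by Airn in the placenta, was untested at E9.5 and ranged from 0.175 to 1.70 RPKM in null and 0.281 to 0.557 RPKM in flox hearts at E10.5, where it did not pass.

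The Kcnq1ot1 domain on chromosome 7 held a fall and a rise. Cdkn1c, which encodes the cyclin-dependent kinase inhibitor p57, fell at E9.5: it had 457, 618, 596, 398 and 531 RPKM in the 5 null libraries, against 762, 771, 699, 691 and 658 RPKM in the 5 flox libraries. All 5 null libraries lay below all 5 flox libraries, and the log2 difference was -0.48 ± 0.12 (limma adjusted p = 0.0179). At E10.5 Cdkn1c had 443, 558 and 704 RPKM in the 3 null libraries, against 778, 561 and 769 RPKM in the 3 flox libraries. Null 3 and flox 2 brought the groups into overlap, and the difference of -0.32 ± 0.24 did not pass (limma adjusted p = 0.45). Without the libraries of high foregut and liver genes, which leaves 1 null library, null 1, the lowest in Cdkn1c, it was -0.80.

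Slc22a18, an organic cation transporter-like gene next to Phlda2, rose at E9.5. It had 0.377, 1.09, 0.957, 0.795 and 1.03 RPKM in the 5 null libraries, against 0.173, 0.316, 0.504, 0.152 and 0.208 RPKM in the 5 flox libraries, which rest on 12 to 33 reads in null and 5 to 16 reads in flox libraries. Null 1 fell within the flox range and the other null libraries lay above it. The log2 difference was 0.80 ± 0.19 (limma adjusted p = 0.016), and limma-voom gave 1.64. At E10.5 it had 1.202, 0.918 and 0.612 RPKM in the 3 null libraries, against 0.206, 0.241 and 0.321 RPKM in the 3 flox libraries. The groups did not overlap there, but the difference of 0.88 ± 0.25 did not pass (limma adjusted p = 0.113), nor did the 1.73 of limma-voom (adjusted p = 0.0808).

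Of the other genes of that domain, Phlda2, which limits placental growth, had 3.01 to 7.60 RPKM in null and 2.37 to 9.07 RPKM in flox hearts at E9.5, and 2.02 to 4.11 RPKM in null and 1.13 to 2.67 RPKM in flox hearts at E10.5. It passed at neither stage. Ascl2, a trophoblast transcription factor, was untested at E9.5. At E10.5 it had 3.17, 1.02 and 0.478 RPKM in the 3 null libraries, against 0.138, 0.207 and 0.107 RPKM in the 3 flox libraries, from 14 to 92 reads in null and 3 to 6 reads in flox libraries. The groups did not overlap, null 1 was the highest, and the log2 difference of 1.44 ± 0.45 did not pass (limma adjusted p = 0.128). Without the libraries of high foregut and liver genes it was 2.56, a value that rests on null 1 as the 1 null library left. Kcnq1ot1, the paternal noncoding RNA that silences the domain, was untested at both stages and reached at most 0.427 RPKM in any library. Its row is 83436 bp long and held 365 to 648 reads in null and 552 to 836 in flox libraries at E9.5. At E10.5 it held 485 to 617 reads in null and 216 to 603 in flox libraries. The RPKM limit, and not a lack of reads, left it untested.

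Mest, Grb10, Gnas and Plagl1, also among the 8 most abundant genes, did not pass at either stage. Mest, a hydrolase-like gene of mesoderm, had 958, 1249, 1432, 1213 and 1296 RPKM in the 5 null libraries, against 874, 1246, 874, 1234 and 1069.6 RPKM in the 5 flox libraries at E9.5. At E10.5 Mest had 1444, 1286 and 1249 RPKM in the 3 null libraries, against 1612, 986 and 1354 RPKM in the 3 flox libraries. The log2 differences were 0.22 ± 0.14 and 0.04 ± 0.25 (limma adjusted p = 0.289 and 0.943), with overlapping libraries.

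Grb10, an adaptor that dampens insulin and IGF receptor signalling, had 447, 426, 449, 430.5 and 423 RPKM in the 5 null libraries, against 448, 462, 442, 454 and 439 RPKM in the 5 flox libraries at E9.5. At E10.5 Grb10 had 427, 445 and 285 RPKM in the 3 null libraries, against 454, 429 and 465 RPKM in the 3 flox libraries. Null 3 alone stood below the others at E10.5, and the log2 differences were -0.05 ± 0.05 and -0.25 ± 0.21 (limma adjusted p = 0.526 and 0.503). Gnas, which encodes the stimulatory G protein alpha subunit, had 148, 143, 147, 145 and 138 RPKM in the 5 null libraries, against 137, 134, 144, 144 and 139 RPKM in the 5 flox libraries at E9.5. At E10.5 Gnas had 199, 157 and 186 RPKM in the 3 null libraries, against 134, 129.5 and 169 RPKM in the 3 flox libraries. The log2 differences were 0.05 ± 0.04 and 0.32 ± 0.17 (limma adjusted p = 0.481 and 0.295). The Gnas row sums several transcripts with different parental expression.

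Plagl1, a zinc finger factor that regulates other imprinted genes, had 121, 131, 142, 116 and 136 RPKM in the 5 null libraries, against 132, 163, 139.8, 156 and 145 RPKM in the 5 flox libraries at E9.5. At E10.5 Plagl1 had 111, 151 and 93.7 RPKM in the 3 null libraries, against 183, 161 and 133 RPKM in the 3 flox libraries. The groups overlapped at both stages, with log2 differences of -0.18 ± 0.07 and -0.44 ± 0.21 (limma adjusted p = 0.11 and 0.258).

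**Figure D4:**
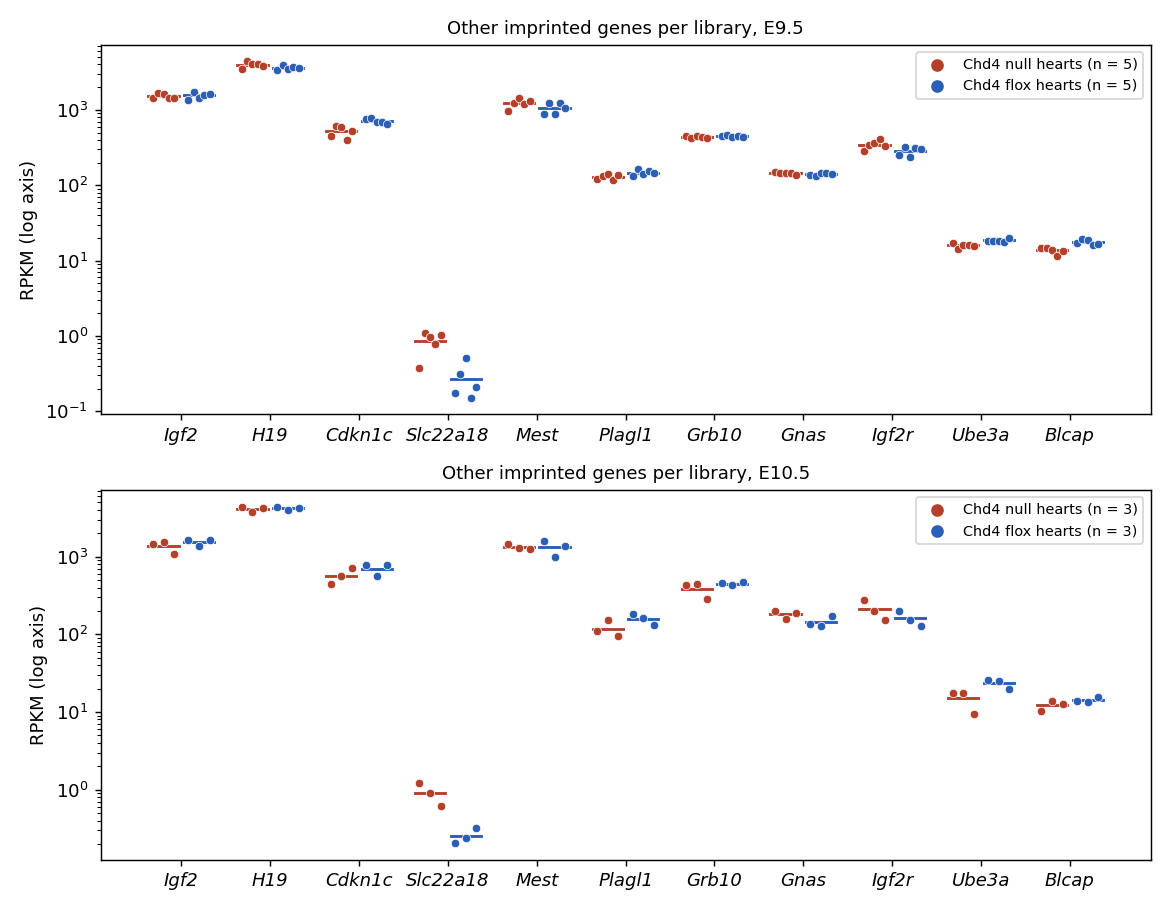
RPKM per library on a log axis for 11 imprinted genes outside the Dlk1-Dio3 domain at E9.5 (top) and E10.5 (bottom), with null libraries left of flox libraries and horizontal bars at the group means. Cdkn1c, Ube3a and Blcap are lower and Slc22a18 is higher in null hearts at E9.5, while Igf2, H19, Mest and Grb10 overlap.

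Ube3a, a ubiquitin ligase whose imprinting is known in neurons, fell at E9.5. It had 17.3, 14.4, 16.3, 16.1 and 15.5 RPKM in the 5 null libraries, against 18.3, 18.5, 18.2, 17.7 and 19.9 RPKM in the 5 flox libraries. No library overlapped, and the small log2 difference of -0.21 ± 0.06 passed (limma adjusted p = 0.0282). This call was lost without flox 1, 2, 3 or 5 or null 2, 3 or 5 (adjusted p up to 0.0703), after median scaling (adjusted p = 0.0713) and after quantile normalization (adjusted p = 0.0914). At E10.5 it had 17.6, 17.7 and 9.52 RPKM in the 3 null libraries, against 26.2, 25.0 and 20.01 RPKM in the 3 flox libraries. The null libraries again lay below the flox libraries, and the difference of -0.69 ± 0.25 did not pass (limma adjusted p = 0.158). The paternal genes of that domain, Ndn, Magel2, Snrpn and Snurf, did not pass at either stage. Ndn, a MAGE family protein, had 98.6 to 138 RPKM in null and 98.5 to 136 RPKM in flox hearts at E9.5. Snrpn and Snurf share a transcript and held nearly the same reads in every library, so they count as a single signal, with Snrpn at 12.5 to 15.7 RPKM in null and 11.8 to 15.9 RPKM in flox hearts at E9.5. Magel2 at E10.5 ranged from 0.306 to 2.67 RPKM in null and 0.239 to 2.97 RPKM in flox hearts.

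Blcap, which surrounds Nnat on the opposite strand of chromosome 2, fell at E9.5. It had 14.7, 14.7, 13.9, 11.7 and 13.3 RPKM in the 5 null libraries, against 16.99, 19.3, 18.6, 16.3 and 16.6 RPKM in the 5 flox libraries. Every null library was below every flox library, with a log2 difference of -0.35 ± 0.08 (limma adjusted p = 0.0105). At E10.5 Blcap had 10.3, 14.0 and 12.6 RPKM in the 3 null libraries, against 13.8, 13.3 and 15.6 RPKM in the 3 flox libraries, overlapping groups with a difference of -0.21 ± 0.16 (limma adjusted p = 0.46). Nnat, a small membrane protein of brain and neuroendocrine cells, had 58.9 to 67.2 RPKM in null and 61.3 to 77.7 RPKM in flox hearts at E9.5 and did not pass.

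A shared CHD4 peak overlaps the promoter windows of Ube3a and Blcap, 2 of the 6 called genes with a window in the table, and these are shown for that reason. The Ube3a peak, 1142 bp wide, had a score at the 27.6th percentile of shared peaks, and the Blcap peak, 845 bp wide, at the 78.9th. The windows are given 5′ to 3′ along each gene from RefSeq on GRCm38.p6: Ube3a at chr7:59228500-59228799 on the plus strand, with 29 CpG dinucleotides, and Blcap at chr2:157566312-157566611 on the minus strand, with 17. The median over all windows is 7. Neither holds the hexamer TGCCGC on either strand.
Ube3a promoter: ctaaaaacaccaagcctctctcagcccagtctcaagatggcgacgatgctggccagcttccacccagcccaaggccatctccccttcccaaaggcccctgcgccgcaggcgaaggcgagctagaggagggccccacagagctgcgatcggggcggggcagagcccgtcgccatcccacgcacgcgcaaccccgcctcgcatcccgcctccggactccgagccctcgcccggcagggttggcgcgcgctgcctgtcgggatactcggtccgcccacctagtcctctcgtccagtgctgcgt
Blcap promoter: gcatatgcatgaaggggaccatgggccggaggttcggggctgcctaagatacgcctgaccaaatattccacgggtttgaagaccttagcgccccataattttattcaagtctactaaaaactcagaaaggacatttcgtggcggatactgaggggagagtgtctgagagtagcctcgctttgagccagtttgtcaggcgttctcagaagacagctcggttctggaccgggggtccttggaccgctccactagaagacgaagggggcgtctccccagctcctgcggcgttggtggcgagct

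The remaining genes passed at neither stage. In the Peg3 cluster, Peg3, a zinc finger protein that affects growth and maternal behaviour, had 118 to 131 RPKM in null and 102 to 139 RPKM in flox hearts at E9.5, and 56.3, 93.6 and 153 RPKM in null against 131 to 157 RPKM in flox hearts at E10.5. Zim1, another zinc finger gene of the cluster, had 16.5 to 23.1 RPKM in null and 12.6 to 19.8 RPKM in flox hearts at E9.5, and Usp29, a deubiquitinase gene, had 1.54 to 2.08 RPKM in null and 1.36 to 1.63 RPKM in flox hearts. In the Peg10 cluster, Peg10, a retrotransposon-derived gene needed for placenta formation, had 69.6 to 94.6 RPKM in null and 51.1 to 96.1 RPKM in flox hearts at E9.5. Sgce, which encodes epsilon-sarcoglycan, had 15.4 to 19.7 RPKM in null and 16.5 to 18.9 RPKM in flox hearts. Asb4, a SOCS box protein of vascular tissue, had 40.9 to 57.6 RPKM in null and 45.6 to 68.0 RPKM in flox hearts, and Ppp1r9a, an actin-binding regulator of protein phosphatase, had 8.40 to 10.1 RPKM in null and 9.08 to 10.6 RPKM in flox hearts. Libraries of both genotypes overlapped for all 7 of these genes at both stages.

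Impact, a regulator of the GCN2 kinase pathway, had 18.1 to 26.4 RPKM in null and 17.7 to 24.0 RPKM in flox hearts at E9.5. Zrsr1, a splicing factor-like gene inside Commd1, had 2.08 to 2.56 RPKM in null and 1.89 to 2.81 RPKM in flox hearts, and Commd1, a regulator of copper handling, had 67.5 to 82.85 RPKM in null and 72.5 to 88.2 RPKM in flox hearts. Mcts2, a retrogene, had 15.0 to 21.9 RPKM in null and 15.3 to 22.5 RPKM in flox hearts. Their ranges overlapped at E10.5 as well.

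Ratios of paired genes within a library, which do not move with the scaling of the library, were compared for 12 of 13 chosen pairs at each stage. Cdkn1c over Kcnq1ot1 was not measured. Each of the 24 differences was given an exact two-sided permutation test, and none passed after adjustment over the 24, while 5 had a raw p under 0.05, all at E9.5. The 12 tests at E10.5 could not have passed, and over the 12 at E9.5 alone, a family chosen after the values were seen, 4 had an adjusted p of 0.0476. The log2 ratio of Meg3 over Dlk1 at E9.5 averaged 0.43 ± 0.16 in null and -0.35 ± 0.11 in flox hearts (SD, n = 5 each), with no overlap (difference 0.79, exact permutation p = 0.0079, the smallest that 5 against 5 allows, adjusted p = 0.0952). Nnat over Blcap at E9.5 averaged 2.20 ± 0.07 in null and 1.90 ± 0.13 in flox hearts, also without overlap (difference 0.29, with the same exact p and adjusted p). H19 over Igf2 at E9.5 averaged 1.38 ± 0.08 in null and 1.23 ± 0.07 in flox hearts (difference 0.15), with overlapping libraries (exact p = 0.0159).

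At E10.5 no test of 3 against 3 can go below an exact p of 0.1, the value of each of the 3 ratios without overlap. Rian over Meg3 averaged 0.88 ± 0.19 in null and 1.72 ± 0.43 in flox hearts (SD, n = 3 each), Igf2r over Igf2 -2.71 ± 0.27 in null and -3.28 ± 0.35 in flox hearts, and Zim1 over Peg3 -2.19 ± 0.20 in null and -2.63 ± 0.21 in flox hearts. Meg3 over Dlk1, separated at E9.5, overlapped at E10.5, with -0.60 ± 1.03 in null and -1.10 ± 0.26 in flox hearts.

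**Figure D5:**
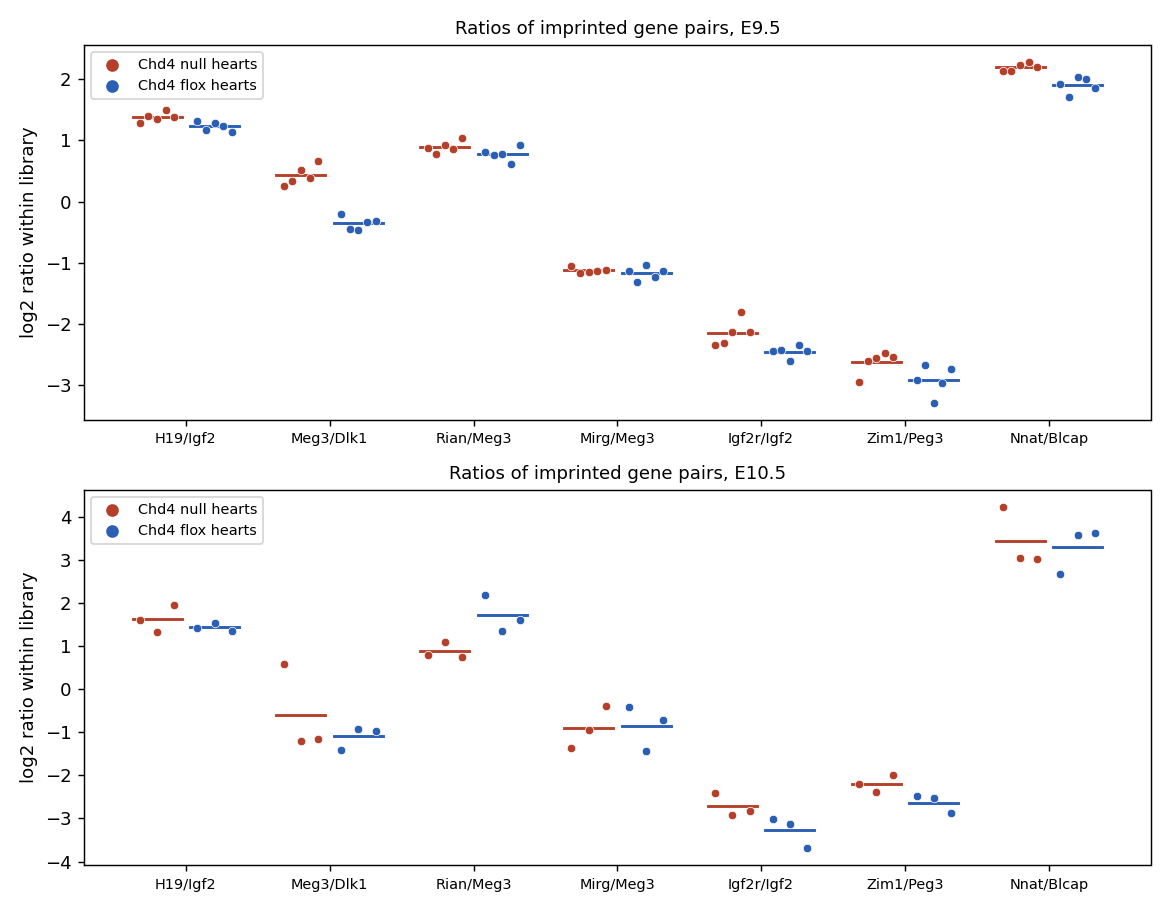
Log2 ratio of 7 pairs of imprinted genes in each library at E9.5 (top) and E10.5 (bottom), with null libraries left of flox libraries and bars at the group means. Meg3 over Dlk1 separates the genotypes at E9.5 and not at E10.5, and Rian over Meg3 is lower in null hearts at E10.5.

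The change from E9.5 to E10.5 was tested as an interaction of genotype and stage over all 16 libraries, where 3.82% of 13886 genes passed, 2.51% with a higher difference at E10.5. Meg3 and Mirg were called among 36 imprinted genes, both with a higher difference at E10.5. The null minus flox log2 difference of Meg3 was 1.82 at E10.5 and 0.73 at E9.5, a gap of 1.09 ± 0.26 (limma adjusted p = 0.0365). That of Mirg was 1.77 at E10.5 and 0.77 at E9.5, a gap of 0.99 ± 0.20 (limma adjusted p = 0.0249). The Meg3 call was lost without flox 1, 2, 3 or 4 or null 3 or 5 of E9.5. It was also lost without flox 1 of E10.5 (limma adjusted p = 0.0982, the highest). The Mirg call was lost without null 3 or 5 of E9.5 or flox 1 or 2 of E10.5 (limma adjusted p up to 0.0729). In flox hearts Meg3 averaged 9.53 ± 3.43 RPKM (SD, n = 3) at E10.5 and 15.9 ± 3.26 RPKM (SD, n = 5) at E9.5, and Mirg averaged 4.87 ± 0.354 RPKM at E10.5 and 6.77 ± 1.39 RPKM at E9.5. Dlk1 had a gap of 1.38 ± 0.41 that did not pass (adjusted p = 0.0614), and Rian had a gap of 0.13 ± 0.19 (adjusted p = 0.68). The stages differ in RNA input and table, so stage itself was not tested, and leaving out single libraries moved the count of called genes between 0 and 4.

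Erythroid markers rose in null hearts at E9.5, and the fit at each stage was repeated with the mean log2 level of the 13 erythroid genes as a covariate. At E9.5 Rian alone was then called among the imprinted genes, while calls over all genes dropped to 90. Meg3 differed by 0.72 (limma adjusted p = 0.19) and Mirg by 0.69 (adjusted p = 0.208), close to their values without that term, and Cdkn1c by -0.33 (adjusted p = 0.621). Slc22a18 differed by 0.39 (adjusted p = 0.73) and Rtl1 by 0.39 (adjusted p = 0.572). At E10.5 Mirg alone was called with either the erythroid or the foregut and liver level in the fit. Calls over all genes then numbered 79 and 182, against 292 in the main fit. Meg3 differed by 1.68 with the erythroid level (adjusted p = 0.0645) and by 1.66 with the foregut and liver level (adjusted p = 0.0646), and Rian by 1.06 (adjusted p = 0.13) and 0.93 (adjusted p = 0.151), against 1.82 and 0.98 without these terms. Epicardial markers summed to 342.6 to 379.7 RPKM in null and 253 to 302 RPKM in flox hearts at E10.5, with none of the 10 genes at 0. Krt19, a keratin, was the 1 of the 10 that rose, averaging 121 ± 48.1 RPKM in null and 23.6 ± 5.82 RPKM in flox hearts (SD, n = 3 each; limma adjusted p = 0.01). The other 9 summed to 204 to 257 RPKM in null and 236 to 275 RPKM in flox hearts, which overlapped, and the median log2 difference of the 10 was -0.10. With the mean log2 level of the 10 in the fit Meg3 (adjusted p = 0.00895) and Mirg (adjusted p = 0.0118) were called and Rian was not (adjusted p = 0.0794), although its difference was still 0.98. Calls over all genes were then 228. At E9.5 the 10 epicardial genes summed to 151 to 462 RPKM in null and 82.3 to 337 RPKM in flox hearts, overlapping ranges. All 10 were higher in null, with a median log2 difference of 0.69, and none was called. With their mean log2 level in the fit at E9.5, 4 imprinted genes rose and 3 fell, while calls over all genes numbered 1683, against 2342 in the main fit. Rtl1 was then lost, with 0.44 (limma adjusted p = 0.0575), and Ube3a, with -0.19 (adjusted p = 0.0733). Plagl1 was gained, with -0.25 (adjusted p = 0.0343). The part of blood or epicardial cells in these differences was not tested.

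Shared CHD4 peaks lay within 5 kb of the start of 21 of the 38 imprinted genes (55.3%), against 62.1% of 14288 genes tested in the RNA data. For the 6 genes with no start in the promoter table either annotated gene end was used. The peak with the highest score near any of the 38 genes was at the start of Airn, 2028 bp wide and at the 95.4th percentile of shared peaks. Kcnq1ot1 had a peak whose middle was 7 bp from its start, at the 91.6th percentile. Peg3 and Usp29, which start head to head, shared a peak at the 83.4th percentile, and a peak at the 85.1st lay on an end of Cdkn1c. Igf2 had 6 shared peaks and H19 had 5, 1 of them with its middle 2285 bp beyond the end of H19 at the higher coordinate. Of the 8 genes called at E9.5, Cdkn1c, Slc22a18, Meg3, Ube3a and Blcap had a peak within 5 kb and Rtl1, Rian and Mirg had none.

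The authors' deposited tables of called genes held 7 of the 38 genes at each stage, where 12.6% of all listed genes were called at E9.5 (6.63% higher in null) and 5.54% at E10.5 (3.8% higher in null). In the authors' deposited table for E9.5 Slc22a18, Meg3, Rian and Mirg were higher in null and Cdkn1c, Ube3a and Blcap lower, which leaves Rtl1 as the 1 gene called here and not listed there. In the authors' deposited table for E10.5 all 7 were higher in null hearts: Slc22a18, Ascl2, Dlk1, Meg3, Rtl1, Rian and Mirg. Dlk1 in the authors' deposited table had a log2 of control over null of -1.21 ± 0.28 SE.

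Among 36 tested genes of a list of other imprinted genes, 5 rose and 3 fell at E9.5. Of all genes tested at that stage 6.87% rose and 10.3% fell. Ddc, an amino acid decarboxylase with a paternally expressed isoform in the heart, averaged 20.6 ± 2.38 RPKM in null and 12.1 ± 0.955 RPKM in flox hearts (SD, n = 5 each; limma adjusted p = 2.86e-04). Smoc1, a secreted calcium-binding matrix protein, averaged 4.56 ± 1.19 RPKM in null and 1.35 ± 0.331 RPKM in flox hearts (adjusted p = 7.71e-04). Tspan32, a tetraspanin of blood cells, rose by 0.87 and Gab1, a docking protein of receptor tyrosine kinases, fell by 0.33 on the log2 scale. At E10.5 Smoc1 alone rose, averaging 7.16 ± 1.70 RPKM in null and 1.70 ± 0.441 RPKM in flox hearts (SD, n = 3 each; limma adjusted p = 0.0111).

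Of 21 tested genes that maintain imprints, such as DNA methyltransferases and their partners, Zfp57 rose at E9.5, averaging 23.2 ± 1.78 RPKM in null and 17.4 ± 0.859 RPKM in flox hearts (SD, n = 5 each; limma adjusted p = 0.00206), and none fell by limma. Without adjustment 2 were higher and 3 lower at p under 0.05, and limma-voom called 1 rise and 1 fall. Over all 13643 genes tested at E9.5 those counts were 1648 and 2769 unadjusted, and 963 and 1428 by limma-voom. At E10.5 none of 20 was called by limma or limma-voom, and an unadjusted p under 0.05 was reached by 1 higher and 3 lower genes. Over all 14100 genes tested at E10.5 it was reached by 1638 higher and 1588 lower genes. Of 16 tested genes of IGF signalling 2 rose and 14 did not pass at E9.5, and of 17 at E10.5 2 rose and 15 did not pass. Over all genes tested 6.87% rose at E9.5 and 1.77% at E10.5. Igfbp2, a binding protein of IGF2, averaged 163 ± 35.1 RPKM in null and 47.9 ± 20.2 RPKM in flox hearts at E9.5 (SD, n = 5 each; limma adjusted p = 6.93e-04), and 167 ± 50.7 RPKM in null and 37.9 ± 9.55 RPKM in flox hearts at E10.5 (SD, n = 3 each; limma adjusted p = 0.00739). Irs1, a docking protein of the insulin and IGF1 receptors, rose at E9.5 by 0.56 on the log2 scale. Stc2, a secreted inhibitor of the protease PAPPA that acts on IGF binding proteins, rose at E10.5 by 2.36 on that scale.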

How the data were processed

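The RPKM were computed and deposited by the authors for each gene and library. Libraries were polyadenylated and stranded, from 200 ng (E9.5) or 300 ng (E10.5) of RNA, per the labels' protocols. The submitters' processing notes name Bowtie 1.2.0, HTSeq 0.6.2 and DESeq2 1.6.3, further SAMtools 1.6, bedtools 2.25.0 and, without a version, MACS2, with mm10 as the build. Whether counting used the strand is not stated there. Multiplying RPKM by gene length returned whole reads (within 0.01) for all values, so depth is known. It limits genes of few reads, and read ranges cover counting error only. In the authors' deposited tables the log2 fold change is control over null, and p-values were adjusted by the authors and listed up to 0.05. The mean signal and test score the authors deposited there were not used. The peak score is a number the authors deposited per peak, of unstated scale. The input libraries were not analysed here.

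Differences were fitted with limma 3.58.1 in R 4.3.3 (lmFit, eBayes with trend, two-sided) on log2(RPKM + 0.5), each stage alone and without covariates, for genes averaging 0.5 RPKM or more, with Benjamini-Hochberg adjustment over all of them. All adjusted p-values given for genes are from limma, or limma-voom where named. The fit was also run on simulated reads with the same spread for every gene and no shift in cell make-up. That run cannot show how the fit behaves on these libraries. Ratios were tested by exact permutation. The series text calls the RNA replicates biological, and no pair of libraries matched within sampling noise. Peaks of the first list overlapped by at least 1 bp in both others were shared. Other settings were the pseudocount, filter, scaling, covariates, a replicate block, single libraries left out and peak rules. The 38 genes, lists and pairs were chosen with earlier results of these data known. Values in every library are given for genes called at either stage and the 8 most abundant, and Dlk1, Ascl2 and Dio3 were added after their values were seen.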

Additional observations from a re-analysis of the deposited data

Results flagged for a closer look

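Rtl1 in flox hearts at E9.5 had a library far from the others: flox 4 had 0.508 RPKM, while the other 4 lay between 0.285 and 0.309 RPKM. It was the 1 library of its kind among 30 gene groups of 5 libraries checked, where chance gives about 1 in 20. The difference between null and flox hearts changed between stages for Meg3, by 1.09 on the log2 scale, and for Mirg, by 0.99, both larger at E10.5 and both past the test of that difference. Either call was lost when certain single libraries were left out.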

How the results depend on the processing

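Over the named genes and settings 563 values kept their side of the threshold, 36 lost the call, 5 gained it and none that was called changed sign. With the erythroid level in the fit the count of called imprinted genes was 1 at E9.5 and 1 at E10.5. It was also 1 at E10.5 with foregut and liver genes as a covariate. Calls over all genes were then 90, 79 and 182, against 2342 at E9.5 and 292 at E10.5 in the main fit. Omitting the libraries of high foregut and liver genes, chosen after seeing the data, leaves 1 null library, so differences alone are given for it. Leaving out single libraries moved the E10.5 count between 1 and 3, the lowest without flox 3 or null 2. The count of genes whose change differed between stages was 1 without the filter and 0 to 4 with single libraries left out, with 0 without null 3 or null 5 of E9.5 or flox 1 of E10.5 and 4 without null 1 of E10.5. Ratios without overlap with single libraries left out numbered 2 to 5 (E9.5, 5 without null 1) and 3 to 6 (E10.5, 6 without null 2). Adjusted over the 12 pairs at E9.5 alone 4 ratios passed, against 0 over all 24. Below the limit of testing, and so without a value, were Rtl1 at E9.5 without any 1 null library, Rtl1 and Slc22a18 with a limit of 1 RPKM, Slc22a18 at E10.5 without null 1 and Rtl1 at E10.5 without the libraries of high foregut and liver genes. The cause was not tested in any of these. Same-numbered libraries were not treated as paired in the main fit. The deviations of same-numbered libraries correlated at 0.451, 0.042, -0.136, 0.519 and 0.258 for replicates 1 to 5 at E9.5. At E10.5 they correlated at 0.051, 0.106 and -0.03 for replicates 1 to 3. The flox library of the same number gave the highest correlation for null 1, 4 and 5 at E9.5 and null 2 at E10.5. Whether the numbers mark pairs was not tested. With a replicate block 10 imprinted genes were called at E9.5, 3 at E10.5 and 3 for the stage difference. All genes called at E9.5 then numbered 3698 against 2342 without it. For ratios this setting counted pairs whose same-numbered null minus flox differences all had the same sign, 5 at each stage. That is not a count of ratios without overlap. Peaks in the upper part by score lay near 14 imprinted genes (36.8% against 47.8% of all genes), peaks overlapping by at least 0.5 of their width near 16 (42.1% against 33.0%) and peaks of the first list alone near 28 (73.7% against 87.5%). The planned voom fit with TMM factors was not run. With 3 libraries a group at E10.5, and few reads for Rtl1, Slc22a18, Ascl2 and Dio3, the depth and number of libraries limit what could be called.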
